A study of Mus musculus with 9 samples.

Results

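Krt10, the gene of a keratin of the outer epidermis, is described here in mouse sciatic nerve together with Gm11940, a gene on the opposite strand, and with 4 other epidermal keratins, Krt1, Krt5, Krt14 and Krt15, which serve as a check for skin. These 6 entries were taken by name from the 25965 gene entries of the count table. Krt10 was chosen by its counts in these libraries, which were higher in both mutants than in controls, and Gm11940 because it overlaps Krt10, so the differences of Krt10 from controls are given as a description, without a test. Sciatic nerves came from C57BL/6 mice in 3 groups: control littermates, PINCH1 mutants and PINCH2 mutants, with 3 libraries each. The age is postnatal day 15 in one field of the labels and day 14 in another. Each library was made from a pool of 4 nerves of 1 male and 1 female, stripped of the epineurium, the outer connective sheath. The sources used here do not say how the mutants were made or in which cells the genes were altered. PINCH1 and PINCH2 are LIM-domain adaptor proteins that join integrin-linked kinase to integrin adhesions.

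Keratins are the intermediate filament proteins of epithelial cells. They form filaments only as pairs of a type I (acidic) and a type II (basic) chain, so a cell that builds keratin filaments makes at least 1 gene of each type. In the epidermis, Krt5 (type II) and Krt14 (type I) are the pair of the basal layer, Krt15 is a further type I keratin of basal cells and of the hair follicle, and Krt1 (type II) and Krt10 (type I) are the pair that replaces them as cells move outward. Schwann cells, fibroblasts and axons build their filaments from other proteins of the superfamily, such as vimentin, nestin and the neurofilaments.

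Krt10 (ENSMUSG00000019761) lies on the minus strand of chromosome 11 at 99385254 to 99389364 (GRCm38), inside the type I keratin cluster. Gm11940 (ENSMUSG00000087692), which GENCODE M21 classes as antisense, lies on the plus strand at 99387340 to 99387897, within the span of Krt10. Its 2 exons overlap Krt10 exons 3 and 4 over 146 bases in all, and the overlap is wholly in the coding part of Krt10. These bases make up 6.97% of the 2094 bases of the main Krt10 transcript and 35.01% of the 417 bases of Gm11940. Both exons are printed on the Krt10 strand, 5′ to 3′, because reads from these bases can be assigned to 1 of the 2 genes only by their strand, and the sources used here do not give the strand setting of the counting. Capitals mark the bases that Gm11940 holds on the other strand. Exon 3 is at chr11:99387498-99387654, with 94 of its 157 bases shared, and exon 4 at chr11:99387230-99387391, with 52 of 162 shared.
Krt10 exon 3: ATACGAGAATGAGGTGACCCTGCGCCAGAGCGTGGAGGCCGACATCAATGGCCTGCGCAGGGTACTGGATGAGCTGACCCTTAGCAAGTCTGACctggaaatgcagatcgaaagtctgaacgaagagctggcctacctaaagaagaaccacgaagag
Krt10 exon 4: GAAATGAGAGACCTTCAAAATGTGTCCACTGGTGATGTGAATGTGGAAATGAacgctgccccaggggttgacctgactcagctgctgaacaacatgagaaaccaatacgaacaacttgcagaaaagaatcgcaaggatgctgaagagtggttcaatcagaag

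**Figure D1:**
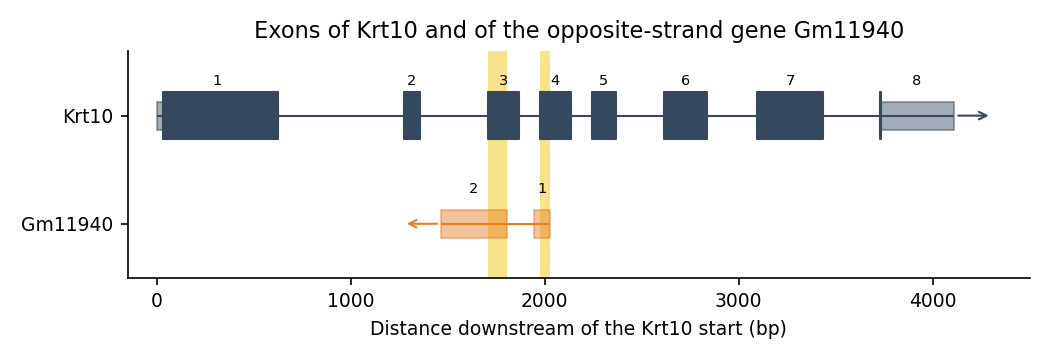
Exons of Krt10 and Gm11940 along the distance in bp downstream of the Krt10 start, with tall boxes for coding exons, low boxes for untranslated or noncoding exons, exon numbers above them and arrows for the direction of each gene. The yellow bands are the shared bases, 94 in Krt10 exon 3 and 52 in exon 4.

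Apart from Gm11940, little of the Krt10 transcript is shared with other genes of the annotation. Of its 2045 windows of 50 bases, 0 occur on either strand in a transcript of another gene, leaving Gm11940 aside. Of its 2060 windows of 35 bases, 2 occur in Krt14, which had no count in any library. RefSeq (GRCm38.p6) places the 5′ end of the Krt10 gene at 99397449, 8085 bp further upstream than the entry in the table.

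Library totals ran from 957828 to 1204964 counts, with 9674 to 11240 entries having at least 1 count. The targeted genes could not check the labels: Lims1 (PINCH1) had 0 to 9 counts per library and Lims2 (PINCH2) 1 to 9, under the filter on low counts. All 9 Schwann cell markers had counts, from 44 over all libraries for Ncam1 to 38964 for Pmp22. Pmp22, the gene of a peripheral myelin membrane protein, was at 3483 to 5332 counts per library. The filter required about 10 counts, or 9.52 CPM (counts scaled to a common library size), in at least 3 libraries and kept 4738 entries. Of the 6 members, 1 passed, Krt10, which was at or above that level in all 9 libraries.

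Counts under Krt10 were 10, 25 and 32 for the control libraries, 69, 67 and 76 for PINCH1 mutants and 53, 74 and 30 for PINCH2 mutants. Scaled for depth by TMM (a factor per library from the bulk of the entries), these were 10.3, 23.6 and 28.7 CPM for controls, 62.9, 76.0 and 63.4 CPM for PINCH1 mutants and 56.1, 61.9 and 30.2 CPM for PINCH2 mutants. The PINCH1 mutant libraries all lay above the controls, while PINCH2 mutant replicate 3 lay close to control replicate 3. The mean was 20.9 ± 9.46 CPM (SD, n = 3) in controls, 67.5 ± 7.42 in PINCH1 mutants and 49.4 ± 16.9 in PINCH2 mutants.

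The separation of the PINCH2 mutants from the controls was narrow and depended on the scaling. With counts divided by the library total alone, PINCH2 mutant replicate 3 was at 28.6 CPM and control replicate 3 at 29.1, so that these groups overlapped. The counting error of a single library was wide at such counts: the exact 95% Poisson interval of the 10 counts of control replicate 1 ran from 4.80 to 18.4 counts, and that of the 30 counts of PINCH2 mutant replicate 3 from 20.2 to 42.8. These intervals cover counting error only. All 6 mutant libraries were above all 3 controls in TMM-scaled CPM for 50 of the 4738 tested entries, or 1.06%, Krt10 among them. By library totals alone that held for 42 entries, or 0.886%, and Krt10 was not among them.

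**Figure D2:**
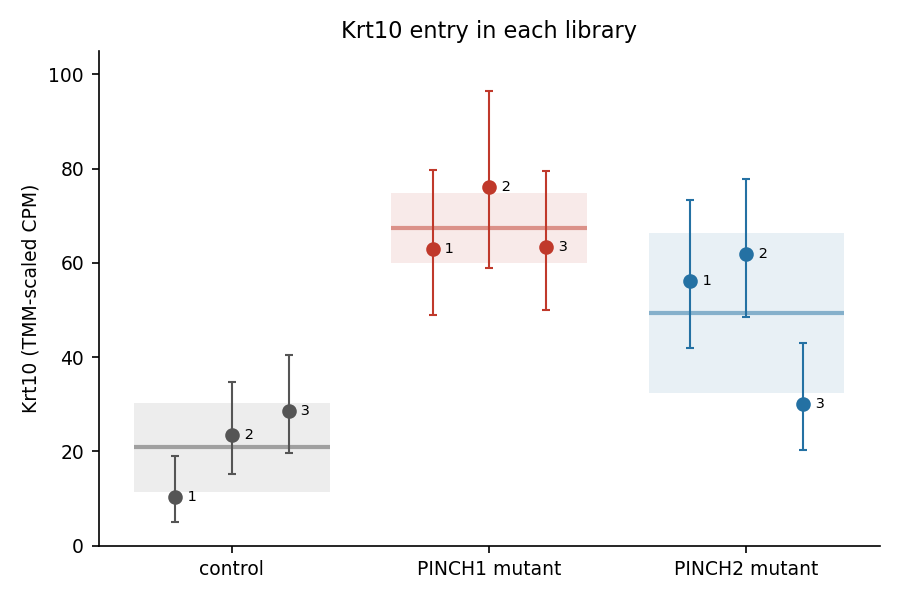
TMM-scaled CPM of the Krt10 entry in each of the 9 libraries, numbered by replicate, with exact 95% Poisson intervals of the count as error bars, group means as lines and 1 SD as shaded bands. The PINCH1 mutants sit between 62.9 and 76.0 CPM, and PINCH2 mutant replicate 3, at 30.2 CPM, lies beside control replicate 3 at 28.7 CPM.

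As fitted across all entries with edgeR, the Krt10 level was 3.19-fold that of controls in PINCH1 mutants, a log2 fold change of 1.67 (SE 0.36), and 2.35-fold in PINCH2 mutants, a log2 fold change of 1.23 (SE 0.36). Both differences are the ones the gene was chosen for, and both use the same 3 control libraries. From the highest, Krt10 was number 19 of 4738 log2 fold changes in PINCH1 mutants and number 34 in PINCH2 mutants, where the median of all tested entries was -0.022 and 0.0040. Entries that, like Krt10, overlap exons of an opposite-strand gene had medians of 0.05 and 0.04, and entries without such an overlap -0.19 and -0.13. Control replicate 1, with the lowest Krt10 count, bore on the size: without it the log2 fold changes were 1.37 and 0.91.

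The difference between the mutants did not choose the gene and was tested. Krt10 was 1.36-fold higher in PINCH1 than in PINCH2 mutants, a log2 fold change of 0.44 (SE 0.34, edgeR adjusted p = 0.938, unadjusted p = 0.202), and did not pass. The lowest PINCH1 mutant library, at 62.9 TMM-scaled CPM, lay just above the highest PINCH2 mutant library, at 61.9, and by library totals alone the lowest and the highest were 63.1 and 61.4 CPM. Such an order of all libraries, PINCH1 above PINCH2 mutants, was found for 5.42% of the tested entries. The 95% interval of this difference ran from 0.837-fold to 2.21-fold, which includes equal levels. For the background, 4 of the 4738 entries, or 0.0844%, passed this comparison in either direction. In order of mean level PINCH1 mutants came first, PINCH2 mutants second and controls last, and the difference between the first and second did not pass the test. Without PINCH2 mutant replicate 3 the log2 fold change between the mutants fell from 0.44 to 0.19 (SE 0.34, edgeR adjusted p = 0.997).

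The opposite-strand entry Gm11940 had 0 counts in each of the 9 libraries. All 436 counts of the pair were therefore under Krt10, with an exact (Clopper-Pearson) 95% interval from 99.2% to 100% for the Krt10 share. The limit that 0 counts set over the 3 libraries of a group is 3 counts, or 0.954 CPM in controls, 0.945 in PINCH1 mutants and 0.957 in PINCH2 mutants, for counts under this name. With the strand setting unknown, this is not shown to be a limit on Gm11940 RNA.

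This split was uncommon in the table. There were 521 pairs with at least 100 counts in all that joined a protein-coding entry to an overlapping entry of the antisense class. In 416 of them the antisense entry held over 50% of the counts, and the coding entry held a median of 7.15%. The antisense entry was at 0 in every library in 21 pairs, or 4.03%, Krt10 and Gm11940 among them. Some entries belong to more than 1 pair. Counts under the Krt10 name are not shown to measure Krt10 mRNA, and which strand they came from was not tested.

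**Figure D3:**
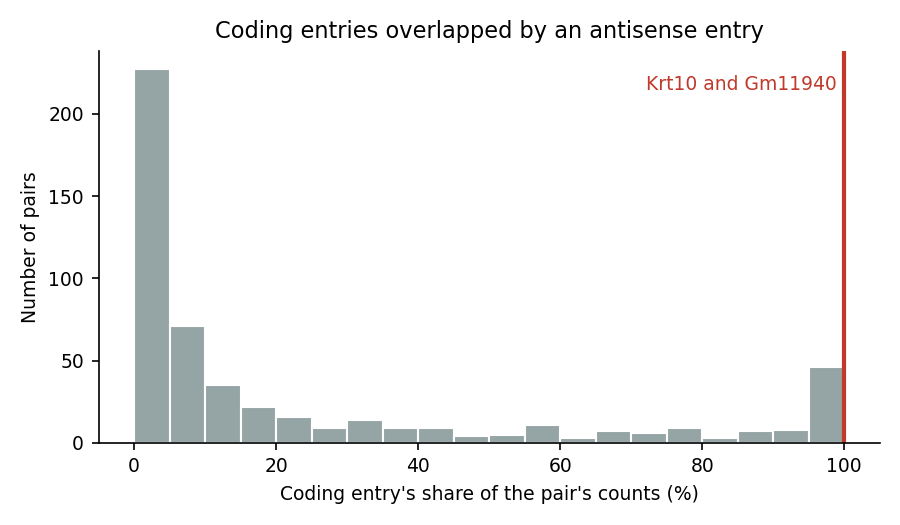
Share of the counts of each pair, in percent, that was under the coding entry, for the 521 pairs of a coding and an overlapping antisense entry with at least 100 counts; the bars count pairs. The red line marks Krt10 and Gm11940, at 100%, while the median pair is at 7.15%.

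The epidermal keratins of the check were not counted at all. Krt1, the type II partner of Krt10 (chromosome 15, 101845428 to 101850786, minus strand), had 0 counts in all 9 libraries. The basal pair Krt5 (chromosome 15, 101707070 to 101712891) and Krt14 (chromosome 11, 100203162 to 100207548) also had 0 counts in every library, as did Krt15 (chromosome 11, 100131758 to 100135928). The limits given for Gm11940, under 1 CPM in each group, hold for counts under each of these names too. With the strand setting unknown, they are not shown to be limits on the RNA of these genes. Entries with an opposite-strand exon overlap were 24.7% of the table and held 88.4% of its counts, and Krt1, Krt14 and Krt15 have no such overlap. The same limit applies to the other epidermal genes at 0 given below, so whether skin RNA was present was not settled. In the PINCH1 mutants, Krt10 had 212 counts over the same libraries in which Krt1 had 0.

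The wider keratin family was nearly uncounted as well. The table held 51 keratin entries, 27 on chromosome 11 and 24 on chromosome 15, and 41 of them had 0 counts in all libraries. Krt10 held 436 of the 474 keratin counts, or 92.0%. Of the other 9 entries with any count, 1 had at least 10 counts: Krt222, a keratin-like gene at the edge of the type I cluster (chromosome 11, 99232761 to 99244085), with 22 counts. Krt222 had 1, 5 and 4 counts in controls, 6, 3 and 1 in PINCH1 mutants and 1, 0 and 1 in PINCH2 mutants, and the groups overlapped. The remaining 8, among them the simple epithelial keratins Krt7, Krt8 and Krt19, had 10 counts together in controls, 4 in PINCH1 mutants and 2 in PINCH2 mutants. All 10 of the controls were in control replicate 3, without which the controls had 0.

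**Figure D4:**
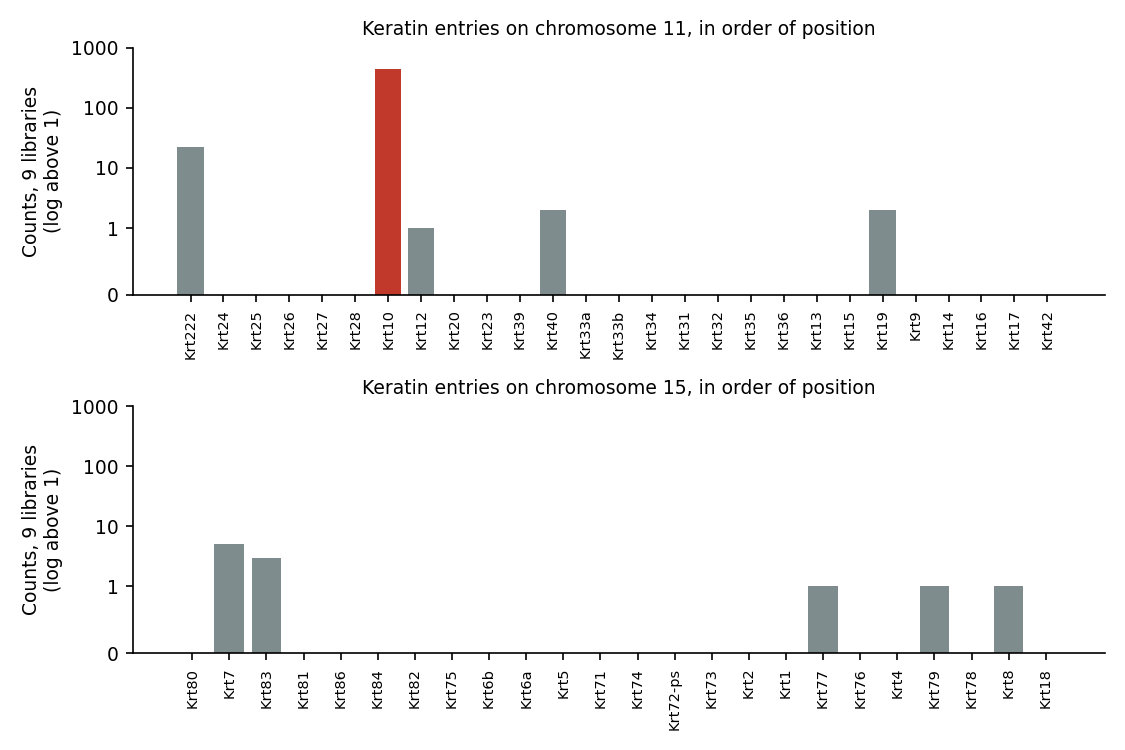
Counts summed over the 9 libraries for each of the 51 keratin entries in order of position on chromosomes 11 and 15, on an axis that is linear up to 1 and logarithmic above it. Krt10 (red) reaches 436 counts, Krt222 22, and every other keratin is at 5 or fewer.

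The counts at Krt10 also stood alone along the chromosome. Within 100000 bp on either side there were 10 other entries, 8 of them at 0 in all libraries and with 2 counts together. The nearest entries with at least 10 counts were Krt222, 141169 bp away, and Eif1, a translation initiation factor gene 930521 bp away on the other side. Eif1 had 36, 78 and 61 counts in controls, 49, 39 and 37 in PINCH1 mutants and 28, 62 and 68 in PINCH2 mutants, so the groups overlapped.

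Other genes of the outer epidermis were at or near 0. Of the 19 suprabasal genes listed beside Krt10, 12 had 0 counts in every library, including Flg, Ivl and Krtdap, which encode the filament-bundling protein filaggrin, the envelope protein involucrin and a keratinocyte secreted protein. The 19 had 15 counts together, 10 in controls, 5 in PINCH1 mutants and 0 in PINCH2 mutants, with a summed level of 0 to 6.27 CPM in controls, 0.912 to 2.27 in PINCH1 mutants and 0 to 0 in PINCH2 mutants. The most counted was Lor, the gene of the cornified envelope protein loricrin, with 6 counts, 5 of them in controls. Keratins of the hair follicle and of wounds had 1 count over 10 entries, and Krt9, the other type I partner of Krt1, had 0.

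Lists that epidermis shares with other tissues had counts, and 0 of their tested members passed against controls. Of 8 basal-layer genes, 4 were at 0, among them Trp63, the transcription factor of basal keratinocytes. The counts were under Itga6, Itgb4 and Dst, genes of hemidesmosome parts that Schwann cells also use, and 1 under Col17a1. The 3 tested members were all below 0 in both mutants, with medians of -0.14 and -0.20, and 0 passed in either comparison. Itga6 was at -0.29 (SE 0.19) in PINCH1 mutants and -0.52 (SE 0.19) in PINCH2 mutants. Of 18 cornified envelope and desmosome genes, 11 were at 0 and 1 was tested, the envoplakin gene Evpl, at 0.09 (SE 0.49) and 0.45 (SE 0.48). Of 7 simple epithelial genes, 3 were at 0 and 1 was tested, the E-cadherin gene Cdh1, at 0.16 (SE 0.46) and -0.15 (SE 0.47). For the background, edgeR passed 0.0633% of all tested entries against controls in PINCH1 mutants and 0.0211% in PINCH2 mutants.

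The 13 listed filament genes of nerve cells had 3774 counts, mostly under Vim (1453), Nefm (1150) and Nes (612). Gfap, Nefl and Ina had 0 counts in the PINCH1 mutants and Lmnb1 had 0 in controls and PINCH1 mutants. These genes were near 0 throughout, with 2 counts for Gfap, 8 for Nefl, 2 for Ina and 3 for Lmnb1 over all 9 libraries. Vim, the vimentin gene of Schwann cells and fibroblasts, was at 42.8 CPM per kilobase of exon in controls, 26.1 in PINCH1 mutants and 28.2 in PINCH2 mutants. On that scale Krt10 was at 9.87 ± 4.48 (SD, n = 3) in controls, 31.9 ± 3.51 in PINCH1 mutants and 23.4 ± 8.001 in PINCH2 mutants, lower than Vim in controls and in PINCH2 mutants and higher in PINCH1 mutants, with no test of these differences between genes. Krt10 overlaps an opposite-strand gene and Vim does not. With the strand setting unknown, these values compare counts under the 2 names and are not shown to compare their mRNA. Vim had 153, 242 and 249 counts in controls, 142, 114 and 135 in PINCH1 mutants and 120, 148 and 150 in PINCH2 mutants. Its log2 fold change was -0.72 (SE 0.20, edgeR adjusted p = 0.363) in PINCH1 mutants and -0.60 (SE 0.20, edgeR adjusted p = 0.999) in PINCH2 mutants. Of the 13 listed filament genes 5 were tested, 4 of them below 0 in each mutant with medians of -0.19 and -0.41, and 0 passed. All tested entries without an opposite-strand overlap had medians of -0.19 and -0.13, and those with one 0.05 and 0.04. The summed level of the 13 was 430 to 524 CPM in controls, 308 to 388 in PINCH1 mutants and 349.7 to 418 in PINCH2 mutants. Both mutants thus lay below the controls, while Krt10 lay above them on this TMM scale. By library totals alone the summed level still did not overlap the controls, while Krt10 in PINCH2 mutants did. For how many of all tested entries both mutants lay below the controls was not counted. Nes, the nestin gene, was at -0.19 (SE 0.29) and -0.41 (SE 0.29). Nefm, a neurofilament gene whose exons overlap those of Nefl on the other strand, was at -0.44 (SE 0.28) and 0.13 (SE 0.28).

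Schwann cell markers were summed to set their level beside that of Krt10. Of their 69767 counts, 38964 were under Pmp22 and 22537 under Mbp. The summed level of the 9 markers was 8193 to 9141 CPM in controls, 6214 to 7318 in PINCH1 mutants and 6311 to 7216 in PINCH2 mutants, so that both mutants lay below the controls on this scale. With counts divided by the library total alone, the PINCH1 mutants overlapped the controls and the PINCH2 mutants did not. The share of all tested entries that lay below the controls in both mutants was not counted. Of the 8 tested, 7 were below 0 in each mutant, with medians of -0.57 and -0.24, and 0 passed. The exception was Mag, the gene of a myelin adhesion protein, at 9.98 CPM per kilobase of exon in controls, 10.8 in PINCH1 mutants and 11.4 in PINCH2 mutants. Most of the tested markers have no opposite-strand overlap, and all tested entries without one had medians of -0.19 and -0.13. The medians of all tested entries were -0.022 and 0.0040. Pmp22 was at -0.26 (SE 0.13) in both mutants, and Mbp, the myelin basic protein gene, at -0.61 (SE 0.17) and -0.55 (SE 0.17). With the strand setting unknown, the summed levels are counts under the marker names and are not shown to measure Schwann cell mRNA. Prx had 4924 counts against 82157 under its overlapping antisense entry Gm15541, while Pmp22 and Mbp have no opposite-strand overlap. In such tissue RNA, fewer cells of a type and less RNA per cell also cannot be told apart. The part of the marker levels in the Krt10 result was not tested. Summed levels of the other lists overlapped between each mutant and controls: fibroblast and perineurial markers ran from 571 to 1374 CPM, macrophage markers from 488 to 664, endothelial markers from 6.03 to 23.4, skeletal muscle markers from 0 to 8.06 and adipocyte markers from 1.03 to 12.5. Of the 5583 macrophage counts, 5466 were under Csf1r, whose exons overlap those of Hmgxb3 on the other strand, while Aif1 had 0. The macrophage level is thus that of 1 entry and is not shown to measure macrophage content.

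The entries whose profile over the 9 libraries was most like that of Krt10 were found by Pearson correlation of log2 CPM, as a description. Differences between the groups enter this correlation, so it favours entries that are higher in both mutants. Over the 4737 other tested entries r ran from -0.931 to 0.958, with a median of -0.034. Golga2, a Golgi matrix protein gene whose exons overlap Swi5, was first at r = 0.958 over 9 libraries. It had 2, 7 and 7 counts in controls, 13, 11 and 12 in PINCH1 mutants and 8, 16 and 7 in PINCH2 mutants, so control replicate 1 was low and PINCH2 mutant replicate 3 was level with 2 of the controls. The next were Gm11491, which overlaps Ska2 (r = 0.920), the chromatin remodelling subunit gene Ino80d (0.919), the quinone reductase gene Cryz (0.919), the glypican gene Gpc2 (0.918) and the cadherin-related gene Cdhr3 (0.918).

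The list ended with the oxysterol-binding family gene Osbpl11 (0.913), Ftsjd2 (0.905), the sulfotransferase gene Gal3st4 (0.902) and 4930570N19Rik (0.901). Gpc2 and Gal3st4 lie over each other on the same strand of chromosome 5 and had nearly the same counts, 79 and 77 in control replicate 1, so they are not separate cases. Of the 10, 7 had an opposite-strand overlap, as had 59.7% of the 4673 tested entries found in the annotation, and 0 were keratins. Their log2 fold changes in PINCH1 mutants were smaller than that of Krt10 for all 10 and ran from 0.40 for 4930570N19Rik to 1.52 for Osbpl11. In PINCH2 mutants they ran from 0.15 for 4930570N19Rik to 1.67 for Osbpl11, the latter larger than the 1.23 of Krt10. Osbpl11 had 0, 5 and 7 counts in controls, 10, 9 and 16 in PINCH1 mutants and 15, 15 and 8 in PINCH2 mutants.

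The difference of Krt10 from controls kept its sign under each of 18 other settings. These settings reuse the libraries by which the gene was chosen, so the kept sign is no separate support. The log2 fold change ran from 1.37 to 1.97 in PINCH1 mutants and from 0.91 to 1.53 in PINCH2 mutants, where the lowest value of each came without control replicate 1 and the highest without control replicate 3. The difference between the mutants ran from 0.19 to 0.66.

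**Figure D5:**
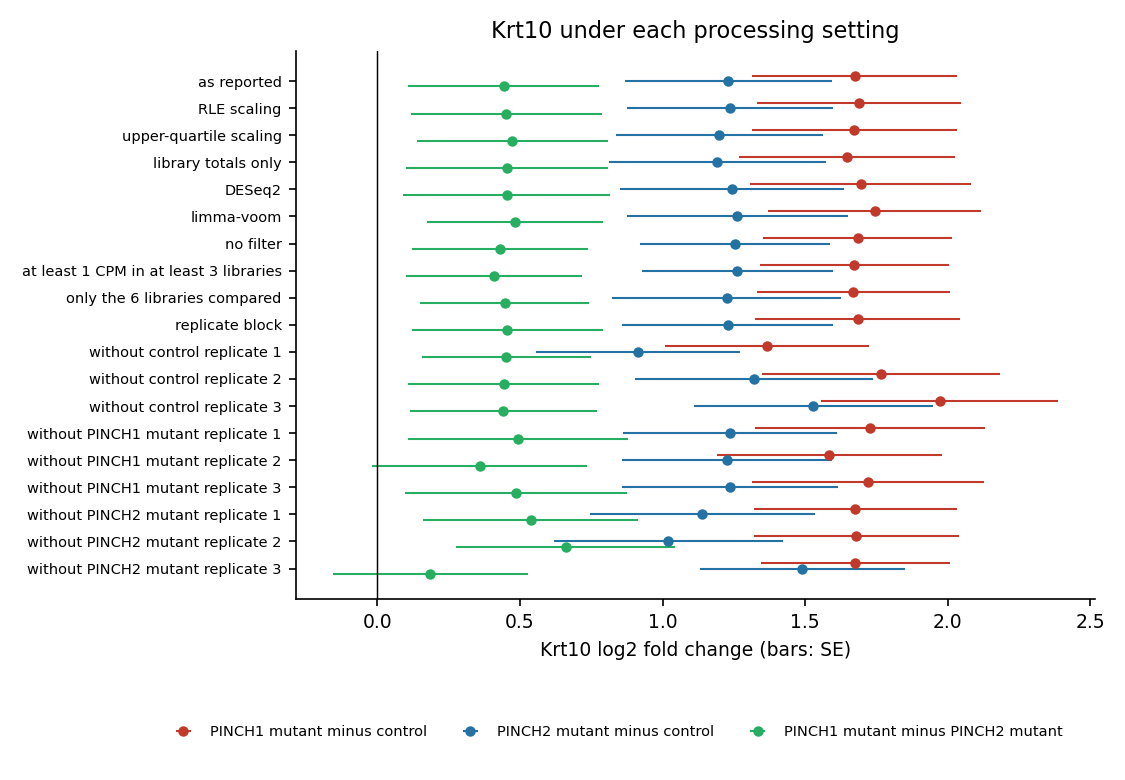
Log2 fold change of Krt10 with its SE (bars) under the reported fit and 18 other settings, in red for PINCH1 mutants minus controls, in blue for PINCH2 mutants minus controls and in green for PINCH1 minus PINCH2 mutants. The red points lie between 1.37 and 1.97, the blue between 0.91 and 1.53 and the green between 0.19 and 0.66.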

How the data were processed

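Per the labels, TruSeq libraries were made from RNA of pooled sciatic nerves. The submitters' processing notes name HISAT2 2.0.5, Trim Galore 0.4.2, cutadapt 1.9.1 and the build GRCm38. For the counting tool, its strand setting and the annotation release, nothing is given in the sources used here. The values deposited by the authors were whole-number read counts for 25965 entries, unscaled. Entries were matched by identifier to GENCODE M21 of the same build (96.4%), and exon overlaps with opposite-strand genes were found from it. The exon sequences come from its transcripts.

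All 9 libraries entered 1 fit with edgeR 4.0.16 (R 4.3.3): TMM scaling, filterByExpr, robust quasi-likelihood F-tests with genotype as the only term, and Benjamini-Hochberg adjustment over the 4738 tested entries at 0.05. SE was taken from the log2 fold change and the F statistic (its size over the root of F), and intervals use the fit's degrees of freedom. The procedure was tested on simulated counts. The replicates are pools of nerves, so the tests judge a difference against the spread between pools. The spread between single animals was not measured. Of values from 1 to 4, 83.6% were odd, and what this does to limits at low counts was not tested. Summed levels leave Krt10 out, and 1 Schwann cell marker of the lists is not reported here and is left out as well.

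The members and the 13 marker lists were chosen with earlier results of these data known. Genes were named by rule: the members, the 10 entries most correlated with Krt10 (log2 CPM, prior count 2), keratins and neighbours with at least 10 counts, and the most counted markers of a list. Eif1, the genes given as examples at 0 and the keratins with fewer counts fall outside it and were picked once their values had been seen. Alternatives were RLE and upper-quartile scaling, library totals only, DESeq2 1.42.0, limma-voom (limma 3.58.1), a block for the replicate number, a fit of just the 6 libraries compared, no filter or a minimum of 1 CPM in 3 libraries, and each library left out in turn.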

Additional observations from a re-analysis of the deposited data

How the results depend on the processing

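The log2 fold change of Krt10 against controls moved by less than the spread between replicates (0.517 on the log2 scale) under all 18 alternatives in both mutants, and its difference between the mutants stayed above 0 and did not pass in any of them (adjusted p from 0.741 to 0.999). Against controls, these settings reuse the libraries by which Krt10 was chosen. The replicate number as a block gave Krt10 log2 fold changes of 1.68 and 1.23 against controls and 0.46 between the mutants. The numbers are not shown to pair the libraries, and pairing is not excluded. Deviations from the group means correlated over 0.1 in 3 of 9 same-number pairs (from -0.11 to 0.25). Of 18 different-number pairs, 1 was over 0.1 (from -0.198 to 0.144). The best correlation was with the own number for 5 of 9 libraries. With each library left out in turn, Krt10 ran from 1.37 to 1.97 in PINCH1 mutants, from 0.91 to 1.53 in PINCH2 mutants and from 0.19 to 0.66 between the mutants. The number of entries that passed between the mutants, 4 as reported, was 10 with DESeq2, 20 with no filter, 27 with at least 1 CPM in at least 3 libraries, 8 with only the 6 libraries compared and 6 with the replicate block. It ran from 3 to 9 with each library left out in turn: 8 without control replicate 2, 8 without PINCH1 mutant replicate 2 and 9 without PINCH2 mutant replicate 2. The cause was not tested. Depth limits the 5 members at 0: for each, up to 3 counts over the libraries of a group are allowed.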
